A study of Homo sapiens with 12 samples.

Results

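These measurements concern 39 genes of DNA replication and deoxynucleotide supply, taken as a fixed list of gene names and followed on 12 arrays. The list was chosen with earlier results of these data known, so counts over it are not independent evidence. All 39 were measured, of 19775 genes in all, by 79 of the 41091 probe sets whose annotation named a single gene. Probe sets naming a member together with another gene were not used (4, all naming PRIM2 and PRIM2BP). The study asked what nucleic acids able to fold into a G-quadruplex (G4), a structure of stacked guanines, changed in the gene expression of human cancer cells. PC-3, labelled as prostate, HBC4, labelled as breast, and MKN74, labelled as gastric cancer, each received 4 treatments, delivered with the transfection reagent Lipofectamine RNAiMAX. Each oligonucleotide was used at 100 pmol per well, and 300000 cells were transfected. The control treatments were the reagent alone and the RNA oligonucleotide (uuaccc)4, and the G4 treatments were the RNA oligonucleotide (uuaggg)4 and the DNA oligonucleotide AS1411, a guanine-rich aptamer known for binding nucleolin. All arrays came from cells kept in DMEM on a low-adhesion surface and harvested 72 h after transfection, and total RNA was hybridised to 1 Affymetrix array for each line and treatment, so a treatment is represented by 3 arrays of 3 different lines. There was no DNA control oligonucleotide among these arrays, so AS1411 was set against the reagent alone.

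Before S phase, the origin recognition complex, CDC6 and CDT1 load the MCM helicase onto origins, which is called licensing. CDC45 and the GINS complex then activate the helicase, DNA polymerase alpha and its primase start each new strand, and the sliding clamp PCNA, placed by replication factor C, holds the polymerases that extend it. Ribonucleotide reductase, thymidylate synthase and thymidine kinase supply the building blocks, and many of these genes are transcribed under E2F control as cells enter S phase, which is why they serve as a readout of proliferation in tumour cells.

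The deposited values are log2 expression values set to a median of 0 over the 12 arrays for each probe set. They give differences between arrays and no levels, so no gene was compared in level with another, and every value below is in log2 units. Probe sets of a gene were averaged. Over all genes the arrays separated by line, with a lowest correlation of 0.87 within a line and a highest of -0.17 between lines, the latter lowered by the centring. Marker lists were set against the labelled tissues. The prostate transcription factor HOXB13 was 4.79 higher in PC-3 than in the mean of the other lines, whereas the secreted androgen target KLK3 differed by -0.16 (limma adjusted p = 0.113). The breast transcription factor GATA3 was 2.70 higher in HBC4 than in the mean of the other lines and 2.24 higher in MKN74 than in the mean of the others. Of the 6 measured breast markers, 4 were higher and 0 lower in HBC4 (25.1% and 29.1% of all genes). In MKN74 1 was higher and 2 were lower (31.1% and 26.6% of all genes). In PC-3 1 was higher and 4 were lower (27.4% and 34.4% of all genes). Against the same shares, 2 of the 4 measured prostate markers were higher and 0 lower in PC-3. The gastric trefoil peptides TFF1 and TFF2 were 8.27 and 8.56 higher in PC-3 than in the mean of the other lines and were not raised in MKN74. Of the 6 gastric markers 0 were higher and 3 lower in MKN74, and 3 were higher and 0 lower in PC-3. Relative to the mean of the other lines, epithelial EPCAM stood at -2.89 and mesenchymal VIM at 3.89 in PC-3. In MKN74 VIM stood at -4.46. Of the 5 epithelial markers 1 was higher and 4 were lower in PC-3. In HBC4 4 were higher and 1 lower, and in MKN74 5 were higher and 0 lower. The line names are used below as labels.

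Against the mean of both controls, the 2 G4 oligonucleotides left 6 of the 39 genes higher and 0 lower, at an adjusted p under 0.05 over all 19775 genes (limma, cell line in the model). The background was 0.961% of all genes called higher and 1.65% called lower. The 6 were ORC1, PRIM1, RRM2, TYMS, TK1 and HELLS, and their differences were modest, from 0.30 for TYMS to 0.48 for ORC1 (1.23-fold to 1.40-fold). At an unadjusted p under 0.05, 28 members were higher and 0 lower, where 9.89% of all genes were higher and 9.04% lower. All 39 mean differences lay above 0, as did 56.3% of those of all genes, with a median of 0.22 over the members, against 0.02 over all genes tested. The lowest was 0.03 for POLE and the highest 0.48 for ORC1. Not all stayed above 0 with a line left out. Without HBC4, MCM10 (-0.21 for PC-3, 0.15 for MKN74), GINS3 (0.15 and -0.18) and POLE (-0.22 and 0.21) averaged below 0. POLE also averaged below 0 without MKN74 (-0.22 for PC-3, 0.08 for HBC4). RNA was taken from whole cultures, in which a larger share of cells carrying a transcript and more of the transcript per cell cannot be told apart. Nothing in the labels says that cultures were repeated within a line, so the p-values measure the spread that treatment and line leave among these 12 arrays. The count of 6 rested on single arrays. It was 0 without HBC4, 0 without MKN74 and 2 without PC-3. With 1 array left out it was 1 without (uuaccc)4 or (uuaggg)4 of PC-3 or HBC4 or without the reagent in MKN74. It was 2 without the reagent or AS1411 in HBC4 or without (uuaggg)4 or AS1411 in MKN74, 5 without (uuaccc)4 in MKN74, and 9 without the reagent or AS1411 in PC-3.

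**Figure D1:**
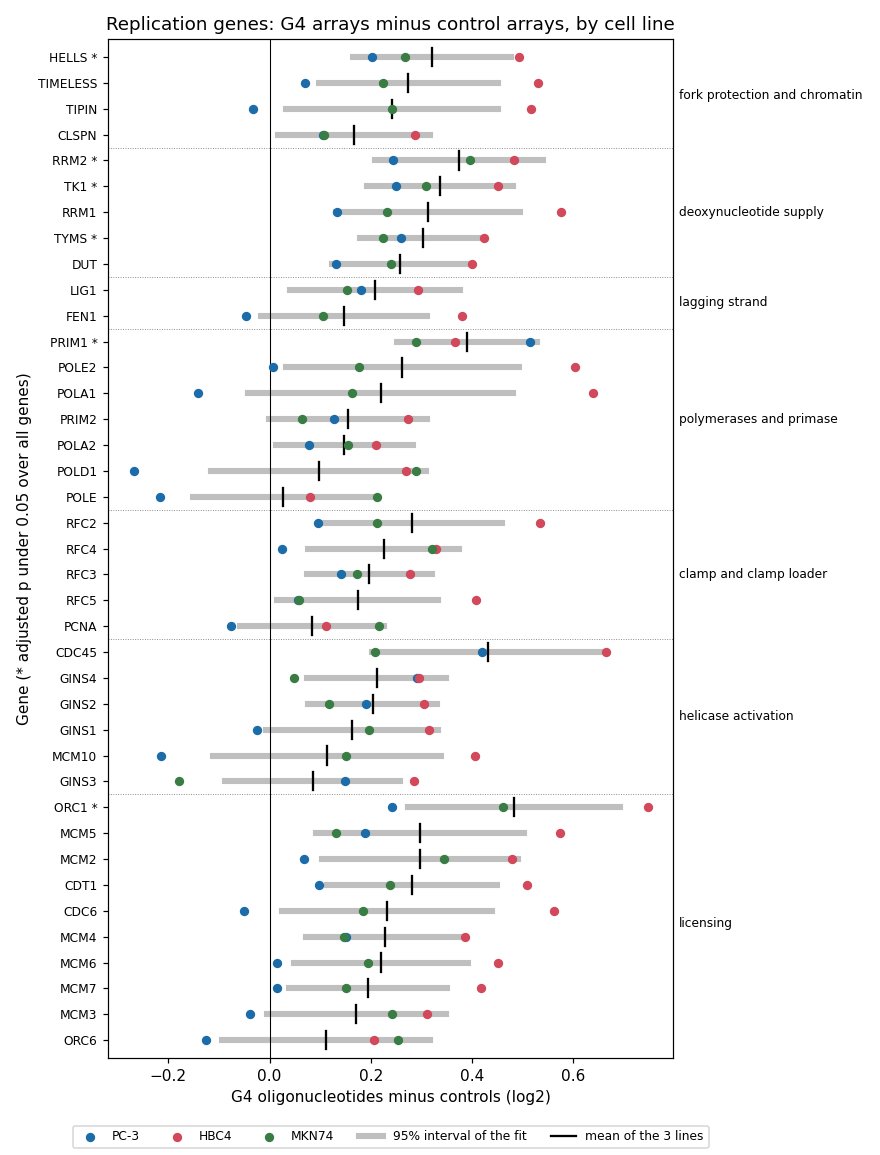
Difference between the mean of the 2 G4 arrays and the mean of the 2 control arrays (log2, horizontal axis) for each of the 39 genes (vertical axis), grouped by role, with 1 point per cell line, the mean of the 3 lines as a bar and the 95% interval of the fit in grey. The means all lie above 0, from 0.03 for POLE to 0.48 for ORC1, and HBC4 has the highest point for most genes.

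Among the licensing genes, ORC1, the subunit of the origin recognition complex whose level cycles with S phase, was the only 1 of 10 past the threshold. In PC-3 its values were -1.86 with the reagent, -2.20 with (uuaccc)4, -1.83 with (uuaggg)4 and -1.74 with AS1411. In HBC4 ORC1 stood at 0.10, 0.38, 0.95 and 1.02 in the same order. In MKN74 the ORC1 values were -0.10, -0.13, 0.25 and 0.44. Both G4 arrays lay above both control arrays in each line, in PC-3 by a gap much smaller than that between its controls. The difference was 0.48 ± 0.25 (SD, n = 3 lines; 1.40-fold; 95% interval 0.27 to 0.69; limma adjusted p = 0.0273). The median of the licensing genes was 0.23. The MCM subunits, which form the helicase ring, ranged from 0.17 for MCM3 (adjusted p = 0.28) to 0.30 for MCM2 and MCM5 (adjusted p = 0.105 and 0.12). The loaders gave 0.23 for CDC6 (adjusted p = 0.213) and 0.28 for CDT1 (adjusted p = 0.0828), and ORC6 gave the smallest value, 0.11, with no line in which the G4 arrays stood clear of the controls.

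None of the 6 helicase activation genes passed, and their median was 0.18. CDC45, the helicase cofactor that joins MCM and GINS, came closest. In PC-3 its values were -1.85 with the reagent, -1.98 with (uuaccc)4, -1.34 with (uuaggg)4 and -1.65 with AS1411, and in HBC4 they were -0.47, -0.11, 0.23 and 0.52. In MKN74 CDC45 stood at 0.11, 0.50, 0.53 and 0.51. The G4 arrays were higher than both controls in each line, but in MKN74 (uuaccc)4 was close to them and only the reagent array stood low. The difference was 0.43 ± 0.23 (SD, n = 3 lines; limma adjusted p = 0.0562). Without (uuaccc)4 in MKN74 CDC45 passed, at 0.50 (adjusted p = 0.0458). The GINS subunits gave 0.16 for GINS1, 0.20 for GINS2, 0.08 for GINS3 and 0.21 for GINS4, and MCM10, which helps CDC45 act on the helicase, gave 0.11.

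The clamp and its loader gave 0 of 5 past the threshold, with a median of 0.20. RFC3, a small loader subunit, had the smallest p of them. Its values in PC-3 were -1.65 with the reagent, -1.85 with (uuaccc)4, -1.67 with (uuaggg)4 and -1.54 with AS1411. HBC4 gave 0.16, 0.20, 0.36 and 0.55 for RFC3, and MKN74 gave 0.00, 0.07, 0.21 and 0.21. The groups were apart in HBC4 and MKN74 and overlapped in PC-3, where (uuaggg)4 lay below the reagent. The difference was 0.20 ± 0.07 (SD, n = 3 lines; limma adjusted p = 0.0949). RFC2, RFC4 and RFC5 gave 0.28, 0.23 and 0.17. PCNA, the clamp itself and a common proliferation marker, gave 0.08 (adjusted p = 0.518).

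Of the 7 polymerase and primase genes PRIM1 alone passed, and the median was 0.16. PRIM1 encodes the catalytic subunit of primase, which makes the RNA primers. In PC-3 its values were -1.93 with the reagent, -1.96 with (uuaccc)4, -1.40 with (uuaggg)4 and -1.47 with AS1411. For HBC4 the PRIM1 values were -0.40, -0.09, 0.09 and 0.15, and for MKN74 they were 0.73, 1.02, 1.18 and 1.15. The groups did not overlap in any line, and in HBC4 and MKN74 (uuaccc)4 lay between the reagent and the G4 arrays. The difference was 0.39 ± 0.11 (SD, n = 3 lines; 1.31-fold; 95% interval 0.25 to 0.53; limma adjusted p = 0.0112), the smallest p among the members. PRIM1 passed with each of the 12 arrays left out, but with a whole line left out its adjusted p lay between 0.0745 and 0.147. Its partner PRIM2 gave 0.16. The polymerase alpha genes POLA1 and POLA2 gave 0.22 and 0.15, the polymerase epsilon genes POLE and POLE2 gave 0.03 and 0.26, and the polymerase delta gene POLD1 gave 0.10.

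Neither lagging strand gene passed. LIG1, the ligase that joins Okazaki fragments, had values of -0.75 with the reagent, -0.89 with (uuaccc)4, -0.59 with (uuaggg)4 and -0.69 with AS1411 in PC-3. In HBC4 LIG1 gave 0.35, 0.31, 0.48 and 0.76, and in MKN74 -0.14, 0.05, 0.25 and -0.05. The groups were apart in PC-3 and HBC4, and in MKN74 the AS1411 array fell between the controls. The difference was 0.21 ± 0.07 (SD, n = 3 lines; limma adjusted p = 0.173). The flap nuclease FEN1 gave 0.15 (adjusted p = 0.317).

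Deoxynucleotide supply held 3 of its 5 genes past the threshold, with a median of 0.31. RRM2 is the regulated small subunit of ribonucleotide reductase, which makes deoxynucleotides from ribonucleotides. Its values were -1.92 with the reagent, -2.21 with (uuaccc)4, -1.80 with (uuaggg)4 and -1.84 with AS1411 in PC-3. In HBC4 RRM2 gave 0.02, 0.20, 0.49 and 0.71, and in MKN74 -0.22, -0.02, 0.21 and 0.35. In each line both G4 arrays lay above both controls. The difference was 0.37 ± 0.12 (SD, n = 3 lines; 1.30-fold; limma adjusted p = 0.0299). With its suffixed probe set left out RRM2 gave 0.28 (adjusted p = 0.0985).

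TYMS, thymidylate synthase, makes dTMP and is the target of fluoropyrimidine drugs. In PC-3 its values were 0.04 with the reagent, -0.15 with (uuaccc)4, 0.17 with (uuaggg)4 and 0.24 with AS1411. In HBC4 TYMS gave -0.02, -0.06, 0.34 and 0.43, and in MKN74 -0.60, -0.51, -0.34 and -0.31. The groups were apart in the 3 lines, and (uuaccc)4 lay below the reagent in PC-3 and HBC4. The difference was 0.30 ± 0.11 (SD, n = 3 lines; 1.23-fold; limma adjusted p = 0.0213). Quantile normalization gave an adjusted p of 0.0512 for TYMS, and leaving out suffixed probe sets 0.0585.

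TK1 is the cytosolic thymidine kinase of the salvage route and, like TYMS, peaks in S phase. In PC-3 it stood at -1.16 with the reagent, -1.29 with (uuaccc)4, -0.84 with (uuaggg)4 and -1.11 with AS1411. The HBC4 values of TK1 were -0.25, -0.17, 0.23 and 0.25, and those of MKN74 0.17, 0.35, 0.55 and 0.58. The groups did not overlap in any line, although in PC-3 AS1411 was only 0.05 above the reagent. The difference was 0.34 ± 0.10 (SD, n = 3 lines; 1.26-fold; limma adjusted p = 0.0261). The probe set of TK1 with the largest spread between lines gave an adjusted p of 0.0662 when used alone. DUT, which removes dUTP, gave 0.26 ± 0.13 (adjusted p = 0.0531), and RRM1, the large reductase subunit, 0.31 ± 0.23 (adjusted p = 0.0761).

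Of the fork protection and chromatin genes, HELLS passed and CLSPN, TIMELESS and TIPIN did not. HELLS is a chromatin remodeller needed for DNA methylation. Its PC-3 values were -1.67 with the reagent, -1.57 with (uuaccc)4, -1.38 with (uuaggg)4 and -1.46 with AS1411. In HBC4 HELLS gave -0.20, -0.17, 0.16 and 0.46, and in MKN74 0.27, 0.43, 0.66 and 0.58. The groups were apart in each line. The difference was 0.32 ± 0.15 (SD, n = 3 lines; 1.25-fold; limma adjusted p = 0.0429), and with quantile normalization the adjusted p was 0.0565. TIMELESS and TIPIN, which form a fork protection complex, gave 0.27 and 0.24, and CLSPN, the adaptor through which CHEK1 is activated, gave 0.17.

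**Figure D2:**
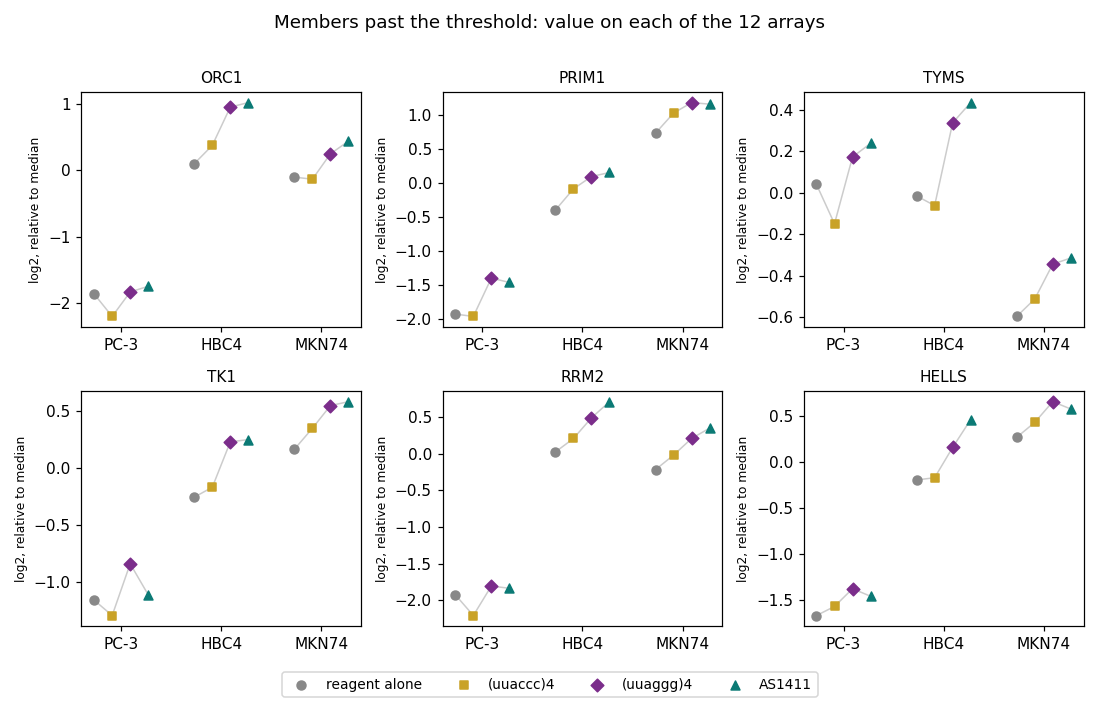
Values of the 6 genes past the threshold on each of the 12 arrays (log2 relative to the median of the gene's probe sets over the arrays, vertical axis, a scale of its own per gene), by cell line on the horizontal axis and by treatment as marker shape and colour, 1 array per point. In every line both G4 points lie above both control points, and the gap is narrow for ORC1, RRM2 and TK1 in PC-3.

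Across all members, both G4 arrays lay above both control arrays of the same line for 14 of 39 in PC-3 (26.2% of all genes), 37 in HBC4 (27.5% of all genes) and 30 in MKN74 (22.7% of all genes). They lay below both for 4 members in PC-3 (22.3% of all genes), 0 in HBC4 (20.1%) and 1 in MKN74 (21.9%). Those below were PCNA, POLA1, POLE and POLD1 in PC-3 and GINS3 in MKN74. In all 3 lines the G4 arrays were above for 10 members, where 3.51% of all genes were: the 6 called genes with CDC45, GINS4, POLA2 and DUT. These counts set no margin. CDC45 counted in MKN74 with AS1411 at 0.5056 against 0.5049 for (uuaccc)4. POLA2 counted in PC-3 with AS1411 at -0.38 against -0.39 for the reagent. PCNA in HBC4 and MKN74 was as close.

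The promoters of the 6 called genes are shown, with the letters of a motif in capitals. Whether these genes are regulated together was not tested. Each sequence is the 130 bases before the gene's start in RefSeq, build GRCh38.p14, written 5′ to 3′ on the gene's strand. Capitals mark the E2F-type sequences TTTCCCGC, TTTCGCGC, TTTGCCGC or TTTGGCGC and the NF-Y box CCAAT, each on either strand, so that ATTGG is a CCAAT of the opposite strand. ORC1 is read at chr1:52404424-52404553 (minus strand), PRIM1 at chr12:56752324-56752453 (minus), RRM2 at chr2:10122609-10122738 (plus), TYMS at chr18:657523-657652 (plus), TK1 at chr17:78187053-78187182 (minus) and HELLS at chr10:94545658-94545787 (plus).
ORC1: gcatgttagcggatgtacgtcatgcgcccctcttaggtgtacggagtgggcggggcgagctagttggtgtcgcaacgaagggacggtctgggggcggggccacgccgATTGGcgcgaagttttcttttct
PRIM1: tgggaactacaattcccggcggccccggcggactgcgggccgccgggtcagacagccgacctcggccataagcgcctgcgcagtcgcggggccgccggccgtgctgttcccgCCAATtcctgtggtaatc
RRM2: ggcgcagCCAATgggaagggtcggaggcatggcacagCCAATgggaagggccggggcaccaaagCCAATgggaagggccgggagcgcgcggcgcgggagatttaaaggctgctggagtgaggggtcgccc
TYMS: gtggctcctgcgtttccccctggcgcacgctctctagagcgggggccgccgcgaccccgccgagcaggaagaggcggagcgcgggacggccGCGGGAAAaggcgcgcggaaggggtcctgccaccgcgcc
TK1: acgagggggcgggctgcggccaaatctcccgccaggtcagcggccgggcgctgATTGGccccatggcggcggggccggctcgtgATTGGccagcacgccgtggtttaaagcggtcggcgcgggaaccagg
HELLS: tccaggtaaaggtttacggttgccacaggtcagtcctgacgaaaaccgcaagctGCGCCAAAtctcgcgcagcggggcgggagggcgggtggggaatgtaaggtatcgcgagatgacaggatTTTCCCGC

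RRM2 carried 3 CCAAT boxes, TK1 carried 2, and ORC1 and PRIM1 carried 1 each. TYMS held 1 E2F-type sequence and HELLS 2, the last of them ending just before the start site. Of the 39 members 36 had a RefSeq promoter window, 250 bases before to 50 after a start, and MCM4, MCM5 and GINS4 had none in the table used. An E2F-type sequence was found in a window of 21 of these 36 genes (58.3%), against 3.99% of all 27305 genes with a window. Of the called genes, TYMS and HELLS were among the 21, and ORC1, PRIM1, RRM2 and TK1 were not. CCAAT was found in 22 of 36 (61.1%) against 39.7%, and TTTGAA, the letters of the cell cycle homology region, in 2 (RRM1 and DUT, 5.56%) against 18.2%. A run of 4 GGG blocks spaced by 1 to 7 bases, the letters a G4 could form from, was found on either strand in 13 of 36 (36.1%) against 27.8%. Some genes have more than 1 window. Per window the shares were 42.9% against 3.31% for E2F-type sequences, 55.1% against 34.6% for CCAAT, 4.08% against 15.2% for TTTGAA and 26.5% against 24.9% for the GGG blocks. Matches are letters in these windows and do not show that a factor binds there.

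The 2 RNA oligonucleotides, the G4 former and its control, were also compared directly. The G4 comparison above is the mean of this comparison and of AS1411 against the reagent, so it shares their arrays. With (uuaggg)4 set against (uuaccc)4, 0 of 39 members passed the threshold in either direction (limma), where 0% of all genes were called higher and 0.202% lower. At an unadjusted p under 0.05, 11 members were higher and 0 lower, where 5.72% of all genes were higher and 4.8% lower. The member differences were positive for 35 of 39, as for 55.7% of all genes, with a median of 0.18 against 0.02 over all genes tested. TK1 had the smallest p, at 0.35 ± 0.13 (SD, n = 3 lines; adjusted p = 0.249), with 0.45 for PC-3, 0.40 for HBC4 and 0.20 for MKN74. TYMS gave 0.30 ± 0.12 (adjusted p = 0.254) and PRIM1 0.30 ± 0.23 (adjusted p = 0.308), and for PRIM1 the PC-3 difference of 0.56 stood well above 0.18 in HBC4 and 0.15 in MKN74.

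AS1411 was compared with the reagent alone. PRIM1 was the single member past the threshold, 0.48 ± 0.06 higher (SD, n = 3 lines; 1.40-fold; 95% interval 0.28 to 0.68; limma adjusted p = 0.048), with differences of 0.47, 0.55 and 0.43 in PC-3, HBC4 and MKN74. The background was 0.106% of all genes called higher and 0.415% lower. At an unadjusted p under 0.05, 22 members were higher and 0 lower, where 6.82% of all genes were higher and 6.79% lower. The differences were positive for all 39, as for 53.7% of all genes, with a median of 0.27 against 0.01 over all genes tested. The call of PRIM1 was lost with any single array left out other than (uuaccc)4 in PC-3, at adjusted p-values up to 0.212, and with any line left out. It was lost as well in 6 of 9 other settings, among them shifting each array to a median of 0 (0.47, adjusted p = 0.0533). In 1 of these 6, the probe set with the largest spread between lines, HELLS passed in place of PRIM1 (0.76, adjusted p = 0.0242). Without the reagent array of PC-3, ORC1 and RRM2 passed (adjusted p = 0.0334 and 0.0229) and PRIM1 did not. Of the others, RRM2 gave 0.45 ± 0.32 (adjusted p = 0.105), ORC1 0.53 ± 0.40 (adjusted p = 0.13) and CDC45 0.53 ± 0.41 (adjusted p = 0.158).

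The step from the reagent alone to (uuaccc)4, the control RNA, left 0 members past the threshold, and 0% of all genes passed in either direction (limma). At an unadjusted p under 0.05 there were 0 members, where 1.23% of all genes were higher and 1.76% lower. The member differences had a median of 0.04 against -0.01 over all genes, and 32 were positive, as were 47.1% of all genes. PRIM1 again had the smallest p, at 0.19 ± 0.19 (SD, n = 3 lines; 95% interval -0.01 to 0.39), with -0.03 for PC-3, 0.31 for HBC4 and 0.29 for MKN74. MCM10 gave 0.23 ± 0.20 (95% interval -0.09 to 0.55) and CDC45 0.21 ± 0.29 (95% interval -0.11 to 0.53). The lines differed in this step. In PC-3 the median over members was -0.09 and 10 members were positive, in HBC4 it was 0.06 with 30 positive, and in MKN74 it was 0.16 with 37 positive. In PC-3 the lowest were ORC1 at -0.34, TIPIN at -0.32 and RRM2 at -0.28, and the highest was MCM10 at 0.44. A line has a single array per treatment, so these differences between lines were not tested.

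Set on the same reagent array, (uuaggg)4 gave member medians of 0.08 for PC-3, 0.38 for HBC4 and 0.28 for MKN74, and AS1411 gave -0.00, 0.50 and 0.28. In PC-3 AS1411 was above the reagent for 19 members and (uuaggg)4 for 24, while in HBC4 AS1411 was above it for all 39 and (uuaggg)4 for 38. In MKN74 both were above it for 38. These steps share the reagent array of their line, which was lower than each of the other arrays for most members in HBC4 and MKN74. In PC-3 the (uuaccc)4 array was lower than the reagent array for most members, and (uuaggg)4 had a median of 0.16 above it.

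**Figure D3:**
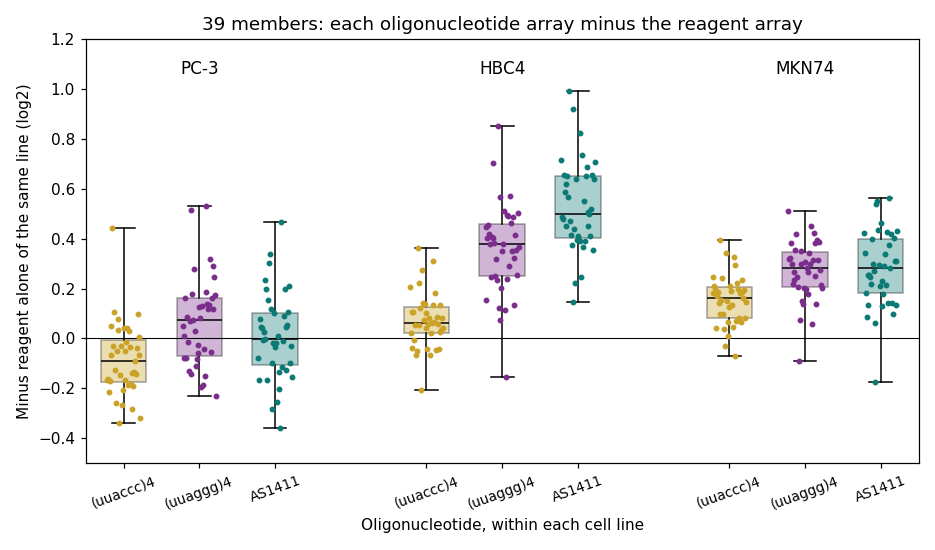
Difference of each oligonucleotide array from the reagent array of the same cell line (log2, vertical axis) for the 39 genes as points, by line and oligonucleotide on the horizontal axis, with boxes at the quartiles, a line at the median and whiskers to the lowest and highest gene. The medians run from -0.09 for (uuaccc)4 in PC-3 to 0.50 for AS1411 in HBC4.

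AS1411 and (uuaggg)4 were compared with each other as the G4 formers of DNA and RNA. Here 0 members passed and 0% of all genes passed in either direction (limma), and 0 members had an unadjusted p under 0.05, where 2.29% of all genes were higher and 2.12% lower. The median was 0.04 against -0.00 over all genes, and 28 members were positive, as were 49.6% of all genes. The smallest p belonged to TIPIN, 0.21 ± 0.13 (SD, n = 3 lines; 95% interval -0.08 to 0.51). PCNA gave 0.14 ± 0.15 (95% interval -0.06 to 0.34) and POLE 0.16 ± 0.21 (95% interval -0.09 to 0.41). The intervals include 0, and they also include differences as large as those of the G4 comparison, so they do not show that the oligonucleotides acted alike. By line the medians were -0.06 for PC-3, 0.16 for HBC4 and 0.00 for MKN74.

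The G4 difference was next taken within each line, where the 2 G4 arrays and the 2 control arrays stand as replicates of a class. In HBC4 17 of 39 members were higher and 0 lower, where 1.53% of all genes were called higher and 1.83% lower. At an unadjusted p under 0.05, 35 members were higher in HBC4 and 0 lower, where 10.2% of all genes were higher and 7.67% lower. In PC-3 0 were called (limma; 0.607% of all genes higher and 1.26% lower), with 5 higher and 1 lower at an unadjusted p under 0.05 (7.52% and 7.48% of all genes). In MKN74 0 were called (0.501% of all genes higher and 1.27% lower), with 13 higher and 0 lower at an unadjusted p under 0.05 (6.58% and 8.09% of all genes). The medians over members were 0.41 in HBC4, 0.21 in MKN74 and 0.10 in PC-3, against 0.02, 0.01 and 0.02 over all genes. The HBC4 calls included the licensing genes ORC1 (0.75 ± 0.13, SE of the fit; limma adjusted p = 0.0105), CDC6 (0.56 ± 0.10, adjusted p = 0.0117), CDT1, MCM5, MCM6 and MCM7. They also included RRM1 (0.58 ± 0.10, adjusted p = 0.0106), POLA1 (0.64 ± 0.11, adjusted p = 0.0132), POLE2, RFC2, RFC5, FEN1, TYMS, TK1, DUT, HELLS and TIMELESS. The count of 17 in HBC4 became 0 without its reagent array or its AS1411 array, 4 without its (uuaccc)4 array and 9 without the PC-3 arrays, which lend the fit their spread.

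The test of the difference between lines, the interaction of G4 class and line, passed for 0 of 39 members (limma; 1.29% of all genes), with 16 at an unadjusted p under 0.05, where 14.4% of all genes had one. A larger response in HBC4 was therefore not shown for any single member. The smallest p belonged to POLD1, the catalytic subunit of polymerase delta (adjusted p = 0.082). Its values in PC-3 were -0.06 with the reagent, -0.03 with (uuaccc)4, -0.21 with (uuaggg)4 and -0.42 with AS1411. In HBC4 POLD1 gave 0.12, 0.18, 0.35 and 0.48, and in MKN74 -0.18, -0.25, 0.11 and 0.03. Its G4 arrays lay below the controls in PC-3 and above them in the other lines. POLA1 (adjusted p = 0.0838) gave differences of -0.14 for PC-3, 0.64 for HBC4 and 0.16 for MKN74, and CDC6 (adjusted p = 0.114) gave -0.05, 0.56 and 0.19. POLA1 passed with quantile normalization (adjusted p = 0.0456), and without the (uuaggg)4 array of HBC4 (adjusted p = 0.0383).

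The lines themselves differed far more than the treatments. The test over the 3 lines passed for 39 of 39 members, where 70.6% of all genes passed (limma), and without PC-3 it passed for 24. PC-3 was lower than the mean of the other lines for 35 members (34.4% of all genes) and higher for 2, GINS3 and TYMS (27.4% of all genes), with RFC5 and POLE2 not called. The member median of PC-3 minus the others was -1.05 against -0.07 over all genes. HBC4 was higher than the mean of the other lines for 33 members (25.1% of all genes) and lower for 3, RFC5, POLE and PRIM2 (29.1%). MKN74 was higher for 27 (31.1%) and lower for 4, MCM7, GINS3, PCNA and TYMS (26.6%). The HBC4 and MKN74 counts rested on PC-3. With its arrays left out, HBC4 was higher than MKN74 for 15 members and lower for 9, with a median of 0.08, and 11 of the members called for each line turned sign, 5 of them past the threshold.

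By role, the largest range of line means belonged to ORC1, MCM10, RFC3, PRIM1, LIG1, RRM2 and TIPIN. MCM10 averaged -2.43 ± 0.22 in PC-3 (SD, n = 4 arrays of 4 treatments), 0.08 ± 0.28 in HBC4 and 0.41 ± 0.12 in MKN74, a 7.16-fold range. PRIM1 averaged -1.69 ± 0.30, -0.06 ± 0.25 and 1.02 ± 0.21 in the same order, a 6.55-fold range, so that the lines ran in a clear order. ORC1 averaged -1.91 ± 0.20, 0.61 ± 0.45 and 0.11 ± 0.28 in that order, and the upper lines overlapped in their spread. Treatment by treatment, ORC1 was higher in HBC4 than in MKN74 (0.10, 0.38, 0.95 and 1.02 against -0.10, -0.13, 0.25 and 0.44). RRM2 spanned 4.91-fold, TIPIN 4.21-fold, RFC3 3.99-fold and LIG1 2.30-fold, each lowest in PC-3. PCNA, by contrast, was high in HBC4 alone, at 1.18 ± 0.09 against -0.24 ± 0.05 in PC-3 and 0.03 ± 0.18 in MKN74. POLE was high in MKN74, at 1.11 ± 0.13 against -0.48 ± 0.13 in PC-3 and 0.04 ± 0.17 in HBC4. TYMS averaged 0.07 ± 0.17 in PC-3 and 0.17 ± 0.25 in HBC4, which overlapped, and -0.44 ± 0.13 in MKN74. PC-3 was the lowest line for 67 of the 79 probe sets, and the share over all probe sets was not computed. By gene, 34.4% of all genes were called lower in PC-3 than in the mean of the other lines.

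**Figure D4:**
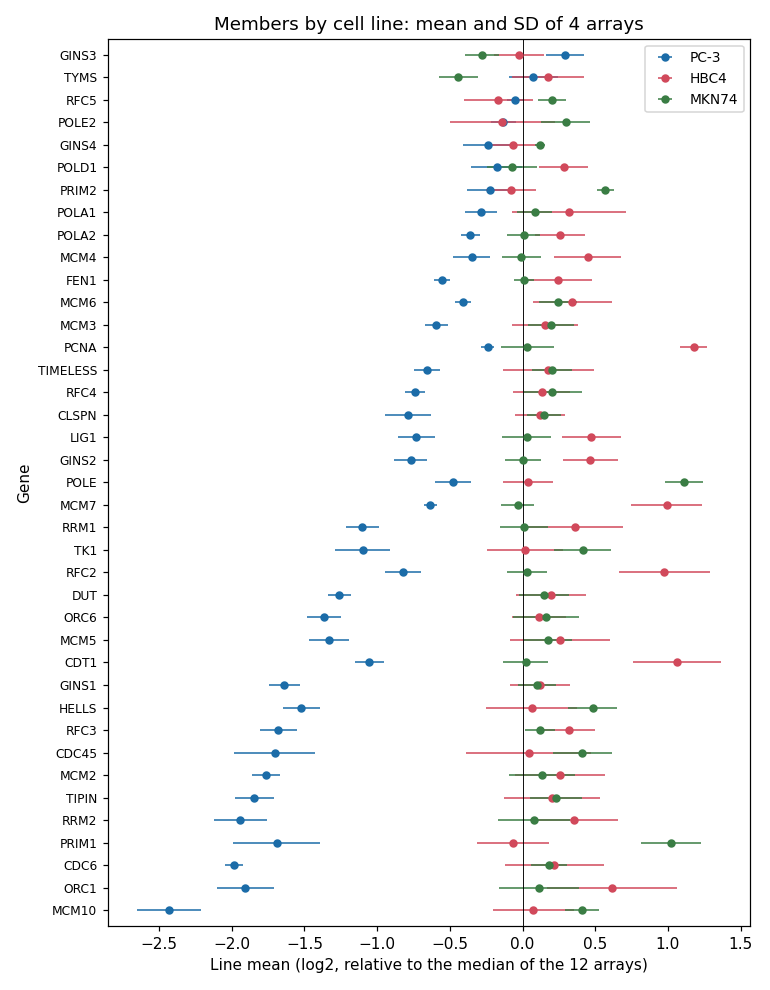
Mean of the 4 arrays of each cell line (log2 relative to the median of the 12 arrays, horizontal axis) for the 39 genes (vertical axis), with the SD over the 4 treatments as bars. PC-3 lies lowest for most genes, down to -2.43 for MCM10, and GINS3 and TYMS stand at the top, where PC-3 was called higher.

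Probe sets of a gene did not always give the same size. Of the 79 probe sets 76 had a positive G4 difference, where 56.3% of all genes were positive. The share over all probe sets was not computed. All values of the 79 lay between -0.15 and 0.62. Among the 23 genes with several probe sets, 20 had positive differences in all of them, and GINS4, MCM10 and RFC5 did not. GINS4 had the widest spread, with 4 probe sets from -0.08 to 0.52. The 5 probe sets of HELLS gave 0.53, 0.24, 0.13, 0.62 and 0.09, so its mean of 0.32 lies between a high pair and a low group. MCM10 gave 0.31, -0.15 and 0.18, and GINS2 gave 0.02, 0.45 and 0.14. Of the other called genes, ORC1 and PRIM1 each rest on 1 probe set, RRM2 gave 0.28 and 0.47, TK1 0.32 and 0.35, and TYMS 0.42, 0.36 and 0.12.

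**Figure D5:**
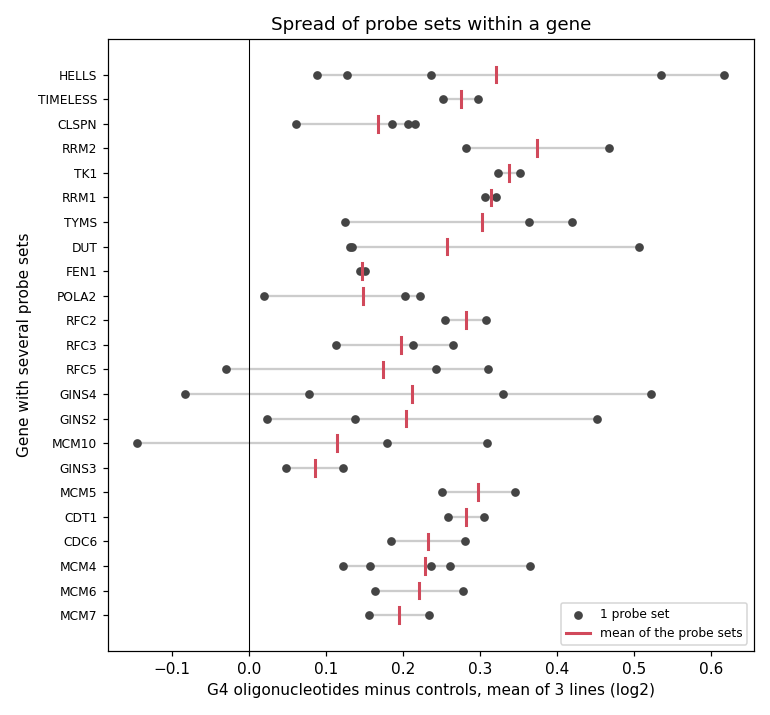
G4 minus control difference (mean of 3 lines, log2, horizontal axis) of each probe set, for the 23 genes with several probe sets (vertical axis), with the mean of the gene's probe sets as a red bar. GINS4 and HELLS have the widest spreads and MCM10 the lowest probe set, at -0.15.

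Other genes of the same processes were taken from lists. In the G4 comparison, used for all the lists below, 0.961% of all genes were called higher and 1.65% lower. Of 36 other replication proteins 3 were higher and 0 lower against the controls (limma), with a median of 0.13 against 0.02 over all genes. They were RECQL4, a helicase of origin firing (0.22 ± 0.05, SD, n = 3 lines, adjusted p = 0.0403), DONSON, a factor of helicase activation (0.25 ± 0.10, adjusted p = 0.0474), and RNASEH2A, which removes ribonucleotides from DNA (0.29 ± 0.08, adjusted p = 0.0348). Of 10 other nucleotide genes 0 were higher and 1 was lower. That gene was SAMHD1, a dNTP hydrolase that is also induced by interferon, which fell by 1.20 (± 0.44, adjusted p = 0.00101). SAMHD1 also fell by 1.13 with (uuaggg)4 against (uuaccc)4 and by 1.27 with AS1411 against the reagent.

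Of 20 regulators of the G1 to S transition 2 were higher, cyclin A2 gene CCNA2 (0.45 ± 0.17, limma adjusted p = 0.0117) and MYBL2, an E2F target and transcription factor (0.47 ± 0.11, adjusted p = 0.0025), and the list's median was 0.07. Both also passed for AS1411 against the reagent, at 0.58 and 0.48, where 0.106% of all genes were called higher. Of 9 replication checkpoint genes CHEK1 alone was higher (0.22 ± 0.08, adjusted p = 0.0494), with a median of 0.02. Of 12 mitotic genes 5 were higher (MKI67, CCNB1, CDC20, UBE2C and KIF11) and 0 lower, where 0.961% of all genes were higher and 1.65% lower. The median of the 12 was 0.29, with medians of 0.21 for PC-3, 0.31 for HBC4 and 0.36 for MKN74. CDC20, which activates the anaphase-promoting complex, gave the largest of these, 0.55 ± 0.25 (adjusted p = 0.00603). All 12 mitotic genes were lower in PC-3 than in the mean of the other lines, as were most members and 34.4% of all genes.

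Interferon-stimulated genes moved in the same comparison as the members. All 12 of that list were lower with the G4 oligonucleotides (limma; 1.65% of all genes), with differences from -3.82 to -1.81 and a median of -2.52. The line medians were -2.42 for PC-3, -3.38 for HBC4 and -1.41 for MKN74. HBC4 had the largest median in both the interferon list and the members, but PC-3 and MKN74 stood in opposite order in them, and the part of the interferon change in the members' difference was not tested. None of the 27 measured markers of prostate, breast, gastric, epithelial or other cells passed in the G4 comparison (limma; 1 at an unadjusted p under 0.05), with a median of 0.04 and values from -0.10 to 0.41.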

How the data were processed

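The deposited values are log2 expression values of 54675 probe sets. They were made with RMA, per the submitters' processing notes. Each probe set's median over the 12 arrays is 0 to within 5e-07, so the values were centred by the authors, and the way is not given in the sources used here. A log base of 2 was taken because the highest value is 11.2. Levels, detection and depth are unknown, and the number of arrays limits the precision.

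Of the probe sets, 62 were array controls, 41091 named 1 gene, 1801 several and 11721 none in the platform annotation of 2016, checked against RefSeq of GRCh38.p14 (41037 matched). Probe sets naming 1 gene were averaged per gene, with no filter on low values. The models were fitted to all 19775 genes with limma 3.58.1 in R 4.3.3 (lmFit, eBayes without trend), with treatment and cell line (6 residual degrees of freedom), or with line and a G4 class effect per line. The p-values were adjusted by Benjamini and Hochberg's method across all genes, with a threshold of 0.05. Each SD is taken over the 3 line differences, and intervals (95%) come from the fit. A replicate number marks 1 cell line in every treatment, so it pairs the arrays and is the block in the model (lowest correlation within a line 0.87, highest between lines -0.17).

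The 39 members, the lists and the markers were chosen with earlier results of these data known, so a count over them is not independent evidence. Named with values were each member past the threshold, the smallest p of each role, the 3 smallest p-values where no member passed, the largest range of line means of each role, the 4 widest probe set spreads, and, in other lists, up to 6 genes past the threshold. Other genes were named after their values were seen. Alternatives were other probe set rules, other scalings, robust variance moderation, no replicate block, and left-out lines and arrays. The fit was tested on simulated data. Promoters are RefSeq windows, searched by exact letters on both strands.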

Additional observations from a re-analysis of the deposited data

Results flagged for a closer look

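For 5 members the G4 arrays moved opposite ways in different lines, with both arrays of 1 line above both controls and both arrays of another line below both controls. POLD1 was lower in PC-3 (-0.27) and higher in HBC4 (0.27) and MKN74 (0.29), with a limma interaction adjusted p of 0.082. POLA1 was lower in PC-3 (-0.14) and higher in HBC4 (0.64) and MKN74 (0.16), with an interaction adjusted p of 0.0838. POLE was lower in PC-3 (-0.22) and higher in MKN74 (0.21). PCNA was lower in PC-3 (-0.075) and higher in HBC4 (0.11) and MKN74 (0.22). Its (uuaggg)4 array was almost level with (uuaccc)4 in HBC4 (1.1607 against 1.1599) and MKN74 (0.0002 against -0.0002), so only AS1411 stood clear. GINS3 was lower in MKN74 (-0.18) and higher in HBC4 (0.28). The interaction passed for none of these 5 over all genes, and a class within a line has only 2 arrays.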

How the results depend on the processing

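In the 5 treatment comparisons no member named by rule for a comparison changed direction under the alternatives run. The other members were not followed, and without HBC4 MCM10, GINS3 and POLE fell below 0 in the G4 comparison, as did POLE without MKN74. Of 447 values followed, 355 stayed on their side of the threshold in the same direction, 91 lost the call and 1 gained it. Most of the 355 came from comparisons in which the member was not called. In the G4 comparison PRIM1 kept its call in 19 of 23 alternatives and ORC1 in 11. RRM2 and TK1 kept it in 10 each, TYMS in 9 and HELLS in 8. For AS1411 against the reagent PRIM1 kept it in 4 of 24. Without the replicate block, that is with the cell line left out of the model, the count of members past the threshold in the G4 comparison fell from 6 to 0, and that of AS1411 against the reagent from 1 to 0. The other settings gave 4 to 7 for the G4 count. Leaving out single lines gave 0 to 2 and single arrays 1 to 9. For AS1411 against the reagent the count of 1 also became 0 with suffixed probe sets left out, with arrays shifted to a median of 0, with the median over probe sets and with only the arrays of the 2 treatments. It lay between 0 and 2 when single arrays were left out. The interaction count of 0 became 1 with quantile normalization and ranged from 0 to 1 over left-out arrays. POLA1 gained the interaction call in both. The count over the cell lines was 24 to 38 with a line left out and 38 to 39 with an array left out. Line calls did change direction: without PC-3, 11 of the 36 members called for HBC4 and 11 of the 31 called for MKN74 turned sign, without HBC4 2 of those for MKN74, without MKN74 2 of those for HBC4 and 1 of the 37 for PC-3, and with the median over probe sets 1 of those for MKN74. The count within HBC4 was 9 to 13 with a line left out and 0 to 18 with an array left out. In the other settings it was 14 to 25, highest with quantile normalization. Within PC-3 the count was 0 to 1 with an array left out. The median difference of the members stayed between 0.15 and 0.32 in the G4 comparison, between 0.14 and 0.39 for AS1411 against the reagent and between 0.13 and 0.25 for (uuaggg)4 against (uuaccc)4. For (uuaccc)4 against the reagent it ran from -0.02 to 0.13, and for AS1411 against (uuaggg)4 from -0.05 to 0.12, so these medians, with no member called, crossed 0. Adding the probe sets that name PRIM2 with PRIM2BP, an alternative chosen after seeing the data, changed no call. The cause of these changes was not tested beyond the smaller number of arrays in each left-out fit. Centred values carry no signal over background, so a dim probe set cannot be told from a bright one.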
